A study of Mus musculus with 3 samples.

Results

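The 8 genes described here encode enzymes and regulators of cholesterol and fatty acid synthesis: Hmgcs1, Idi1, Fdps and Sqle of the sterol pathway, its regulators Srebf2 and Insig1, and the fatty acid desaturases Scd1 and Scd2. They were chosen by function, with their levels on these same arrays already known, so every value below is a description and carries no test. All 8 were found among 23185 named genes. Of these 8, 7 lay among the 11593 genes past the level minimum, set at a log2 level of 4.55 averaged over the 3 arrays. Scd1 did not, with a mean of 4.42.

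The cells were long-term haematopoietic stem cells of mouse bone marrow, sorted by surface markers (lineage-negative, ckit+, Sca+, Flk2-, CD48- and CD150+) and held overnight in serum-free StemSpan medium before exposure. There were 3 groups of 1 array each: unirradiated cells (0 Gy), cells given a low dose of 0.02 Gy and cells given a high dose of 2.5 Gy of gamma rays. RNA from all 3 was taken 2 hours after exposure, and the study asks how stem cells respond early to low doses. The sources used here do not give strain, age or number of mice. With 1 array per dose there is no replicate spread, no test was possible, and every difference below is between single arrays, each made from a population of cells in which fewer expressing cells and less RNA per cell cannot be told apart.

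Mammalian cells make cholesterol from acetyl-CoA through mevalonate, isoprenoids, squalene and lanosterol. When membrane sterol is low, the transcription factor SREBP-2, the product of Srebf2, is carried by SCAP to the Golgi, cut there by site-specific proteases and sent to the nucleus, where it raises transcription of the sterol enzymes; Insig proteins hold SCAP back when sterol is plentiful. The related factor SREBP-1 acts more on fatty acid genes such as the stearoyl-CoA desaturases, which place a double bond in saturated fatty acids.

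Hmgcs1 and Scd2 were the members with the widest range over the arrays, and their patterns differed. Hmgcs1 was at least 2-fold higher at 2.5 Gy than on both other arrays. Scd2 was at least 2-fold higher at both doses than on the unirradiated array. Srebf2, Sqle and Fdps had their highest value at 2.5 Gy, Insig1 and Scd1 had theirs at 0.02 Gy, and the 3 values of Idi1 lay within 0.11 of each other.

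**Figure D1:**
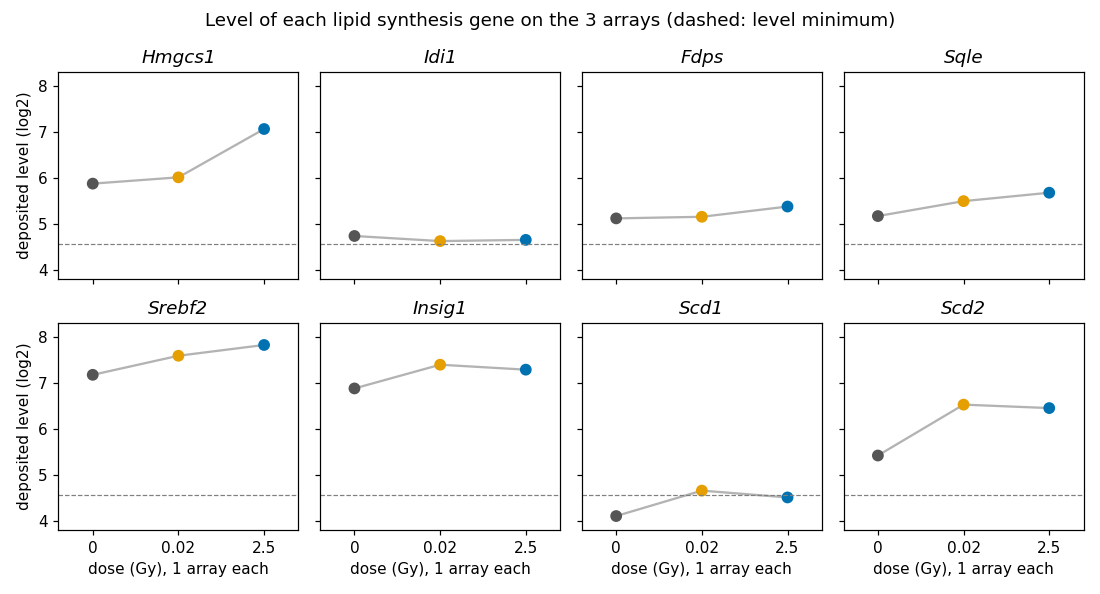
Deposited log2 level (vertical axis) of each of the 8 genes on the unirradiated (0 Gy), 0.02 Gy and 2.5 Gy arrays (horizontal axis), 1 point per array, with the level minimum of 4.55 dashed; there are no error bars because each dose has 1 array, and heights are not comparable between genes. Hmgcs1 stands apart at 2.5 Gy (7.06), while Scd2 is lowest on the unirradiated array (5.42).

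Hmgcs1 (Entrez gene 208715) encodes the cytosolic HMG-CoA synthase, which makes the substrate of the rate-limiting reductase of the sterol pathway. Its level was 5.87 in unirradiated cells, 6.01 at 0.02 Gy and 7.06 at 2.5 Gy (log2). Only the array at 2.5 Gy was high. The difference was 1.19 for 2.5 Gy minus unirradiated, a 2.28-fold higher level, and 1.05 for 2.5 Gy minus 0.02 Gy, a 2.07-fold higher level. For 0.02 Gy minus unirradiated it was 0.14. Among the genes past the level minimum, 79 had a higher difference than Hmgcs1 in 2.5 Gy minus unirradiated. The middle 95% of the 500 genes nearest to it in mean level spanned −0.50 to 0.90 in that comparison; this is a spread between genes and not a replicate error.

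Idi1 (319554) encodes the isomerase that interconverts the building blocks of isoprenoids, and Fdps (110196) the synthase that joins them into farnesyl diphosphate. Idi1 was at 4.73, 4.62 and 4.65 at 0, 0.02 and 2.5 Gy, close to the level minimum on all arrays. Fdps was at 5.11, 5.15 and 5.37. The largest difference between arrays was 0.26 for Fdps, in 2.5 Gy minus unirradiated, where 23.9% of the genes past the level minimum had a higher one.

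Sqle (20775) encodes squalene epoxidase, which oxidises squalene on the way to lanosterol. Its level was 5.16, 5.49 and 5.67 at 0, 0.02 and 2.5 Gy. The order followed dose, with differences of 0.51 for 2.5 Gy minus unirradiated, 0.32 for 0.02 Gy minus unirradiated and 0.18 for 2.5 Gy minus 0.02 Gy. In the first of these comparisons 8.68% of the genes past the level minimum had a higher difference.

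Of the regulators, Srebf2 (20788) was at 7.17, 7.59 and 7.82 at 0, 0.02 and 2.5 Gy. It was 0.65 higher (1.57-fold) at 2.5 Gy and 0.41 higher at 0.02 Gy than on the unirradiated array, and 0.23 higher at 2.5 Gy than at 0.02 Gy. Insig1 (231070), itself a known target of SREBP, was at 6.88, 7.39 and 7.28. Unlike Srebf2 it was highest at 0.02 Gy, 0.52 above the unirradiated array, and 0.41 above it at 2.5 Gy. Scaling moved these differences more than those of the other members. After quantile normalization Srebf2 differed from unirradiated by 0.19 at 0.02 Gy and 0.47 at 2.5 Gy, and Insig1 by 0.32 and 0.24.

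The paralogs of these regulators lay below the level minimum. Srebf1, which encodes SREBP-1, was at 3.90, 4.06 and 4.06 at 0, 0.02 and 2.5 Gy. Insig2 was at 3.81, 4.25 and 3.70. Levels this low were not set against background, which is not known here, so no fold is given for them.

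The promoters of 4 of the 8 genes (Hmgcs1, Srebf2, Insig1 and Idi1) were in the RefSeq promoter table (build GRCm38.p6). They are printed because they set the gene with the largest difference at 2.5 Gy beside the regulators and beside a sterol enzyme whose arrays hardly differed. Each sequence is the 250 bases upstream of the gene's start, 5′ to 3′ on the plus strand, at chr13:119690101-119690350 (Hmgcs1), chr15:82147019-82147268 (Srebf2), chr5:28071162-28071411 (Insig1) and chr13:8885356-8885605 (Idi1). Capitals mark matches on either strand to the sterol regulatory element TCACNCCAC, to TCACCCCA, to the NF-Y box CCAAT, to the Sp1 box GGGCGG or to the E-box CACGTG.
Hmgcs1: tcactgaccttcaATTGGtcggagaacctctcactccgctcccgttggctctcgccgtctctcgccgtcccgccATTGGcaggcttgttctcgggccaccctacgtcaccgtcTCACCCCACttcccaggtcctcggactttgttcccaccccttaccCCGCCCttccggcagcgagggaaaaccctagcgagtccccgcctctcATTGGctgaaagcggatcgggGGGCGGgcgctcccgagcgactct
Srebf2: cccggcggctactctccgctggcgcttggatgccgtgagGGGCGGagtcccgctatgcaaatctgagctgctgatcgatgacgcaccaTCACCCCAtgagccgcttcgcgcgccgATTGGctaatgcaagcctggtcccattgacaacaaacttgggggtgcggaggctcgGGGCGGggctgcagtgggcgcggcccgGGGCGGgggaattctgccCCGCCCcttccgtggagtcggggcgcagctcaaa
Insig1: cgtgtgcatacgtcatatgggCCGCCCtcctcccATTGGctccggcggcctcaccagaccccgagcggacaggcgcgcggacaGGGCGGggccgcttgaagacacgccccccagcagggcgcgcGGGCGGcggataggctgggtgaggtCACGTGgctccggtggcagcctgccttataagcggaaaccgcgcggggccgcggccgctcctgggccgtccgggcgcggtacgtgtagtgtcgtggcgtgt
Idi1: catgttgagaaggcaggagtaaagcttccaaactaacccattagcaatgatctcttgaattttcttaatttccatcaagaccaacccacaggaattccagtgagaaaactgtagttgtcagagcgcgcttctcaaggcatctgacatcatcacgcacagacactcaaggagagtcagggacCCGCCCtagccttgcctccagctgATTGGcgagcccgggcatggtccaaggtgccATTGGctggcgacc

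SREBP proteins bind sterol regulatory elements and are known to act with NF-Y and Sp1 at many sterol gene promoters. The Hmgcs1 window held 1 match to TCACNCCAC, which begins 137 bases before the start, and 3 CCAAT and 2 GGGCGG matches. TCACNCCAC was found in 1.05% of the 32851 promoters of the table, CCAAT in 33.8% and GGGCGG in 32.7%. The Srebf2 window held no TCACNCCAC but had TCACCCCA, which begins 162 bases before the start and lies inside the Hmgcs1 match too. TCACCCCA was added after these sequences were seen and was found in 1.34% of promoters. Insig1 had 1 CCAAT, 3 GGGCGG and 1 CACGTG match, the last found in 6.02% of promoters, and Idi1 had 2 CCAAT and 1 GGGCGG. The longer form of the sterol regulatory element matched none of the 4 windows. Of 20 promoters of cholesterol synthesis genes, Hmgcs1 and Idi1 among them, 15 held CCAAT and 17 held GGGCGG. The only 1 that held TCACNCCAC was that of Hmgcs1. These matches describe letters and not sites of binding.

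Scd2 (20250) encodes a stearoyl-CoA desaturase found in many mouse tissues outside the liver. Its level was 5.42 in unirradiated cells, 6.52 at 0.02 Gy and 6.45 at 2.5 Gy. The unirradiated array was the low one, and the irradiated arrays differed from each other by −0.07 (2.5 Gy minus 0.02 Gy). Scd2 was 2.15-fold higher at 0.02 Gy and 2.04-fold higher at 2.5 Gy than on the unirradiated array (differences 1.11 and 1.03). These values lie just past 2-fold, and some moved below it with the scaling. The differences were 1.09 and 1.004 after median centring, 1.03 and 0.995 after quantile normalization, and 0.999 and 0.949 after loess. Both comparisons use the same unirradiated array, so a deviation of that array alone cannot be told apart from a response shared by the doses.

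Scd1 (20249), the main desaturase of liver and fat, had a mean below the level minimum. It was at 4.10 in unirradiated cells, 4.65 at 0.02 Gy and 4.51 at 2.5 Gy, so only the array at 0.02 Gy exceeded the minimum. The differences from unirradiated were 0.55 at 0.02 Gy and 0.40 at 2.5 Gy. Scd2 had the same order of arrays, and Scd3 and Scd4 did not. Scd3 was at 4.002, 4.59 and 3.73, and Scd4 at 4.09, 3.41 and 3.91. The Scd genes are close relatives, and whether each probe set reads its own gene alone was not tested.

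At 2-fold the member counts were small. In 2.5 Gy minus unirradiated, 2 of 8 members were at least 2-fold higher (Hmgcs1 and Scd2), against 1.15% of the genes past the level minimum, and 0 were 2-fold lower, against 0.578%. In 0.02 Gy minus unirradiated, 1 of 8 was at least 2-fold higher (Scd2), against 1.33%, and 0 were lower, against 1.14%. In 2.5 Gy minus 0.02 Gy, 1 of 8 was higher (Hmgcs1), against 1.44%, and 0 were lower, against 1.06%. At 1.5-fold, Srebf2 joined at 2.5 Gy, giving 3 of 8 against 6.07% of genes, while the count stayed at 1 of 8 in 0.02 Gy minus unirradiated (7.5% of genes) and in 2.5 Gy minus 0.02 Gy (5.74%). Nothing is read from these counts against their backgrounds, because the members were chosen with their values in these comparisons already known.

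By sign, 7 of 8 members were above 0 in 2.5 Gy minus unirradiated, where 53.4% of genes were, and 7 of 8 in 0.02 Gy minus unirradiated, where 54.2% were. Idi1 was the exception in both. Between the irradiated arrays, 5 of 8 were above 0 in 2.5 Gy minus 0.02 Gy, against 49.4% of genes. The median difference of the 8 was 0.46, 0.37 and 0.10 in these comparisons, beside medians of all genes of 0.02, 0.04 and −0.00.

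**Figure D2:**
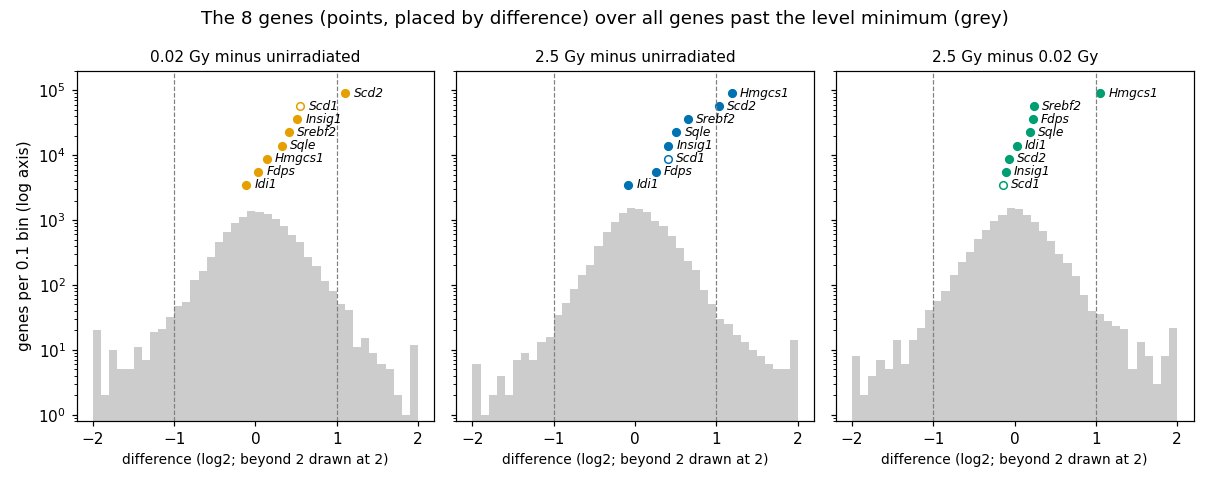
Log2 differences (horizontal axis) of the 8 genes, drawn as points stacked by size, over a histogram of the 11593 genes past the level minimum (grey; genes per bin of 0.1, log vertical axis), in 0.02 Gy minus unirradiated, 2.5 Gy minus unirradiated and 2.5 Gy minus 0.02 Gy; dashed lines mark 2-fold, genes beyond 2 are drawn at 2 and the open point is Scd1, below the level minimum. Hmgcs1 lies past 2-fold in both comparisons with the 2.5 Gy array, and Scd2 in both comparisons with the unirradiated array.

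The other enzymes of cholesterol synthesis were read from a list of 22 genes, of which 19 were measured and 16 lay past the level minimum. Of these 16, 1 (Hmgcs1) was at least 2-fold higher in 2.5 Gy minus unirradiated, against 1.15% of all genes past the level minimum, and 0 were 2-fold lower, against 0.578%. At least 1.5-fold higher were 5, against 6.07% of genes: Hmgcs1, Dhcr7, Msmo1, Erg28 and Fdft1. The list's median was 0.18, with 11 of 16 above 0, against 53.4% of genes; over all 19 measured it was 0.26, with 13 above 0. Without the members that the list contains, the median of the remaining 12 was 0.08, with 8 above 0.

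Apart from Hmgcs1, these genes act from squalene synthesis onward. Fdft1, squalene synthase, was at 5.19, 5.56 and 5.89 at 0, 0.02 and 2.5 Gy. Msmo1, a sterol methyl oxidase, was at 5.87, 6.22 and 6.77, and Dhcr7, which reduces the last intermediate to cholesterol, at 4.67, 5.08 and 5.61. In each of these 3 genes the order followed dose, and 2.5 Gy minus unirradiated was 0.71 for Fdft1, 0.90 for Msmo1 and 0.94 for Dhcr7. Cyp51, lanosterol demethylase, had the same order at 3.995, 4.63 and 4.98, with a mean just under the level minimum. Fdft1 and Cyp51 were named after their values were seen.

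Other steps did not share the pattern. Mvk, mevalonate kinase, differed by −0.33 and Lss, lanosterol synthase, by −0.26 in 2.5 Gy minus unirradiated. Ebp, like Cyp51 with a mean under the level minimum, was at 4.60, 4.78 and 3.97 at 0, 0.02 and 2.5 Gy. It differed by −0.63 in 2.5 Gy minus unirradiated, the lowest of the 19 measured genes. All of these too were named after their values were seen. Erg28, which holds the C-4 demethylation enzymes together, had another order, at 7.39, 8.80 and 8.20 at 0, 0.02 and 2.5 Gy, and was the only gene of the list at least 2-fold higher in 0.02 Gy minus unirradiated (1.41; 1.18 after quantile normalization). That comparison had a list median of 0.05, with 9 of 16 above 0, against 54.2% of genes, and a median of 0.14 over all 19 measured.

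**Figure D3:**
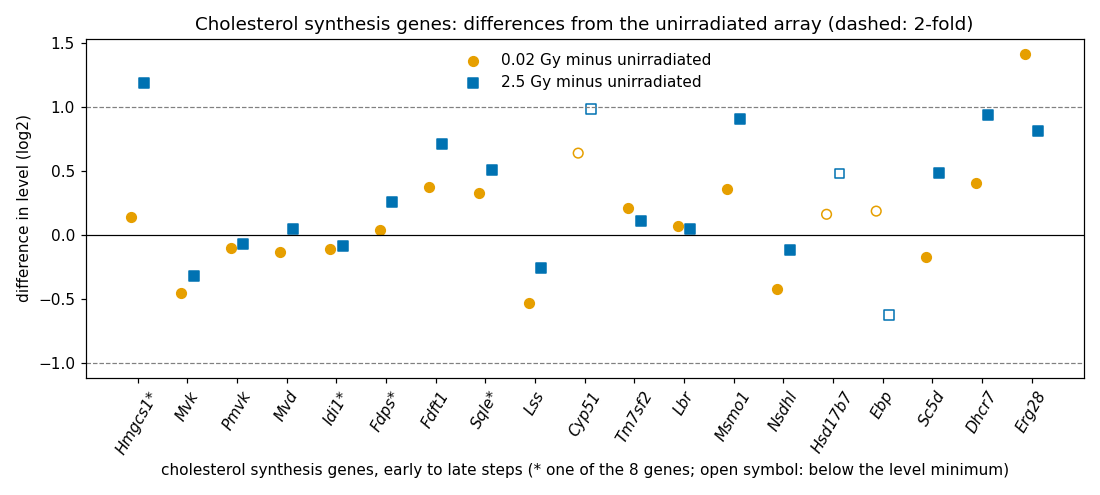
Log2 difference from the unirradiated array (vertical axis) of the 19 measured cholesterol synthesis genes, in the order of the list from early to late steps with the scaffold gene Erg28 last; circles are 0.02 Gy, squares 2.5 Gy, asterisks mark the 4 that belong to the set of 8, open symbols genes below the level minimum, and dashed lines 2-fold. Hmgcs1, Fdft1, Msmo1 and Dhcr7 lie higher at 2.5 Gy than at 0.02 Gy, while Mvk and Lss are below 0 at both doses.

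Between the doses, without the unirradiated array, 13 of the 16 cholesterol synthesis genes were above 0 in 2.5 Gy minus 0.02 Gy, against 49.4% of genes, with a list median of 0.20 beside −0.00 for all genes. The count was the same after median centring, quantile normalization and loess. Hmgcs1 was the only one at least 2-fold higher, followed by Sc5d, a late sterol desaturase (0.66; named after its value was seen), Msmo1 (0.55) and Dhcr7 (0.54). Erg28 was the only one at least 1.5-fold lower (−0.60). Without the members, 9 of 12 were above 0, with a median of 0.23.

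The genes that control SREBP were read as a list that includes Srebf2 and Insig1. Of 7 genes of that list past the level minimum, 6 were above 0 in 2.5 Gy minus unirradiated (median 0.34), against 53.4% of genes (median 0.02). The 5 of them that are not members had a median of 0.28. Over all 10 measured genes the median was 0.22, with 7 above 0, and over the 8 that are not members 0.13, with 5 above 0. Rnf145, a sterol-sensing ubiquitin ligase, was 0.43 higher, Rnf139, another ubiquitin ligase of the endoplasmic reticulum, 0.34 higher and Mbtps1, the site-1 protease that cuts SREBP, 0.28 higher. In 0.02 Gy minus unirradiated the median of the 7 genes was 0.17, with Rnf139 at 0.41.

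Fatty acid synthesis genes, none of them members, had 10 genes past the level minimum. Of these 10, 8 were above 0 in 2.5 Gy minus unirradiated, against 53.4% of genes, with a median of 0.29. Over all 16 measured genes the median was 0.080, with 9 above 0, so the value depends on leaving out low genes. None of the 10 was at least 2-fold higher in that comparison, against 1.15% of genes, or lower, against 0.578%. Fasn, fatty acid synthase, was at 5.06, 5.33 and 5.94 at 0, 0.02 and 2.5 Gy and was 0.88 higher (1.84-fold) at 2.5 Gy than on the unirradiated array. Acaca, the carboxylase that supplies its substrate, was at 5.12, 4.56 and 5.26, so its low array was 0.02 Gy. Acsl3, an acyl-CoA synthetase, had its high array there, at 5.16, 5.72 and 4.90. In 0.02 Gy minus unirradiated the list median was 0.18, and it was 0.05 after quantile normalization.

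The desaturation and elongation list, which holds Scd1 and Scd2, had 12 of 21 measured genes past the level minimum. Of these 12, 11 were below 0 in 2.5 Gy minus 0.02 Gy, where 50.4% of all genes were, with a median of −0.13. After loess 10 of 12 were, and over all 21 measured genes 4 were above 0. In 0.02 Gy minus unirradiated the median was 0.34, with 9 of 12 above 0, against 54.2% of genes. There 2 were at least 2-fold higher, against 1.33% of genes: Scd2, and Hacd2 at 1.01, which was 0.99 after median centring. Nothing is read from this count. Scd2 was chosen with its values known, and Hacd2 passed the level minimum only through its high 0.02 Gy array. In 2.5 Gy minus unirradiated the median was 0.15, with 8 of 12 above 0, against 53.4% of genes. There 1 was at least 2-fold higher (Scd2), against 1.15% of genes. Over all 21 measured genes these medians were 0.24 and 0.054. Without the members, 11 genes of the list lay past the level minimum. Their median was 0.25 in 0.02 Gy minus unirradiated, with 8 above 0 and 1 at least 2-fold higher (Hacd2). In 2.5 Gy minus unirradiated it was 0.13, with 7 above 0 and 0 at least 2-fold higher. Between the doses 10 of the 11 were below 0, with a median of −0.14.

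The 3 other genes of this list past the level minimum with the largest differences had the same low array as Scd2. Fads2, the desaturase of polyunsaturated fatty acids, was at 6.78, 7.45 and 7.42 at 0, 0.02 and 2.5 Gy, with differences from unirradiated of 0.67 and 0.64. Elovl5, an elongase, was at 5.55, 6.43 and 5.97. Hacd2, a dehydratase of the elongation cycle, was at 4.14, 5.15 and 4.43, below the level minimum on the unirradiated and 2.5 Gy arrays. All 3 had their lowest value on the unirradiated array and their highest at 0.02 Gy. Not all genes of the list did. Of the 12 past the level minimum, 8 were above 0 in 2.5 Gy minus unirradiated and 4 below. Those below were Tecr, Fads6, Elovl1 and Elovl2, named after their values were seen. The last 3 had their highest value on the unirradiated array.

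**Figure D4:**
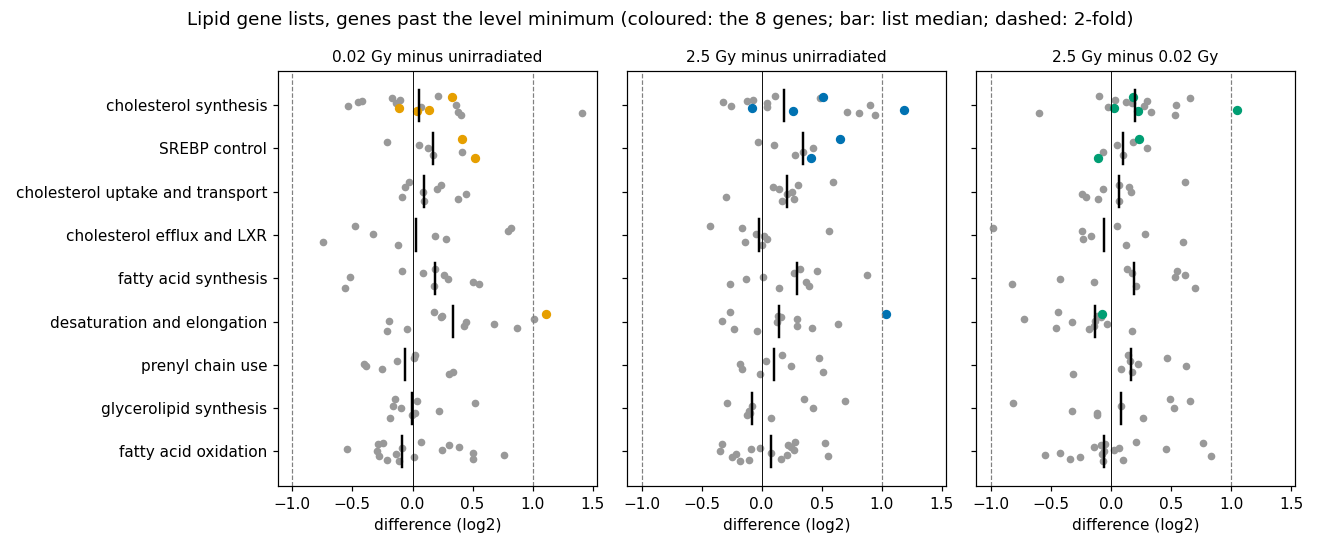
Log2 differences (horizontal axis) of the genes past the level minimum in 9 lipid gene lists (rows), in 0.02 Gy minus unirradiated, 2.5 Gy minus unirradiated and 2.5 Gy minus 0.02 Gy; each point is a gene, coloured points are genes of the set of 8, black bars are list medians and dashed lines mark 2-fold. Points past 2-fold belong to Hmgcs1, Erg28, Scd2 and Hacd2, and the desaturation and elongation list lies almost wholly below 0 between the doses.

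The remaining lists cover sterol handling, lipid use and breakdown, and had no member. Their medians in 2.5 Gy minus unirradiated were 0.21 for uptake and transport (8 of 9 above 0) and −0.02 for efflux and the LXR pathway (4 of 8). They were 0.10 for use of prenyl chains (5 of 8), −0.08 for glycerolipid synthesis (4 of 9) and 0.08 for fatty acid oxidation (9 of 17). Over all measured genes, low ones included, these medians were 0.15, −0.05, 0.034, 0.075 and 0.033 in the same order of lists, so that of glycerolipid synthesis changed sign (10 of 16 above 0). No gene of these lists past the level minimum was at least 2-fold higher or lower in any of the 3 comparisons. Over all genes past the level minimum, these shares ran from 0.578% to 1.44% by comparison and direction. In 2.5 Gy minus unirradiated 53.4% of all these genes were above 0, with a median of 0.02. Stard4, a cholesterol carrier and known SREBP-2 target, was at 6.09, 6.06 and 6.68 at 0, 0.02 and 2.5 Gy, high only at 2.5 Gy as Hmgcs1 was. Pcyt1a, the rate-limiting enzyme of phosphatidylcholine synthesis, was at 6.28, 6.31 and 6.97. Nceh1, which frees cholesterol from its esters, was at 6.02, 6.84 and 5.86, highest at 0.02 Gy.

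Other named genes of these lists differed by less than 2-fold in both directions. Higher at 2.5 Gy than unirradiated were Ppard, a fatty acid sensing receptor (0.53), Acadvl, the first enzyme of long-chain oxidation (0.55), Fnta, the shared subunit of the prenyl transferases (0.51), Rabggtb, which prenylates Rab proteins (0.47), Gpat4, which starts glycerolipid synthesis (0.43) and Nus1, a subunit of dehydrodolichyl diphosphate synthase (0.24). Higher at 0.02 Gy than unirradiated were Lpcat3, a phospholipid remodelling enzyme (0.79), Cpt1a, the gate of mitochondrial fatty acid import (0.76), Lpin2, a phosphatidate phosphatase (0.52), Mylip, which degrades lipoprotein receptors (0.45) and Gramd1b, a cholesterol transfer protein (0.37). Abcg4, a sterol exporter, was lower at 0.02 Gy by the same comparison (−0.74).

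The genes whose pair of differences from unirradiated lay nearest to that of Hmgcs1, among 9715 protein-coding genes outside multigene families, were Slc25a10, Rab20, Sqstm1, Vps37b and Ifrd1, at Euclidean distances of 0.014 to 0.12 (log2). Sqstm1, for example, was at 7.65, 7.80 and 8.80 at 0, 0.02 and 2.5 Gy. Nearest to the median pair of the 8 members were Ecd, Mrpl2, Zfp35, C1galt1c1 and Chrac1, at distances of 0.0096 to 0.025. Likeness over 3 arrays rests on 2 numbers per gene, and no shared function or control is implied.

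Of the sorting markers, Kit was at 8.58, 8.78 and 8.50 at 0, 0.02 and 2.5 Gy and Slamf1 (CD150) at 5.24, 4.75 and 4.84, while Cd48, selected against, was below the level minimum on all arrays (3.62, 3.31 and 3.40). Flt3 (Flk2), also selected against, was at 4.60, 4.95 and 4.93. Of 13 measured markers of mature myeloid cells, 8 lay past the level minimum, and S100a8 was, like Scd2, at least 2-fold higher at both doses (5.57, 6.87 and 6.81), as was S100a9 (6.82, 7.94 and 8.38). The summed level of the 13 markers, on the log2 scale, was 8.76, 9.36 and 9.54. Their median level was 4.85, 4.80 and 4.73. The 8 past the level minimum had median differences from unirradiated of 0.49 at 0.02 Gy and 0.44 at 2.5 Gy. Above 0 were 6 and 7 of them, against 54.2% and 53.4% of genes. Over all 13 markers, 7 were above 0 at each dose. At 2.5 Gy 3 were at least 2-fold higher, against 1.15% of genes, Ly6c2 (4.61, 5.18 and 5.65) being the third. The neutrophil genes Ly6g (5.06, 4.33 and 4.21) and Ngp (4.23, 3.32 and 3.31), with means below the level minimum, were lower at both doses. Of 10 adipocyte and stromal markers, 5 lay past the level minimum and none was 2-fold higher or lower in any comparison: the fat droplet gene Plin1 (5.07, 4.72 and 4.55), Cxcl12 (5.36, 5.01 and 5.44) and the collagens Col1a1, Col1a2 and Col3a1, between 4.55 and 5.14. The fat cell genes Adipoq (3.10, 3.33 and 3.06) and Fabp4 (2.64, 2.98 and 2.91) stayed under 4.55 on each of the 3. The summed level of these 10 was 7.73, 7.55 and 7.69. The summed levels of the erythroid, B cell, T and NK cell, megakaryocyte and endothelial lists had ranges over the arrays from 6.85 to 6.92 (B cell, the narrowest) up to 9.16 to 9.57 (erythroid, the widest). The part of other cell types in the Scd2 differences was not tested.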

How the data were processed

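RNA of 3 samples was hybridised to Affymetrix arrays as biotin-labelled target made with a whole-transcript labelling kit, as the labels' protocols state. The values are the authors' deposited log2 levels, 1 per probe set, named by Entrez gene; the log2 scale was read from the values (1.55 to 12.4). Partek is named in the submitters' processing notes with no role; the sources used here do not give background correction, normalization or summarisation, and signal over background could not be assessed, which limits low genes most. Of 25206 probe sets, 23185 had 1 symbol in the platform annotation, 0 had several and 2021 had none; array medians were 4.60, 4.54 and 4.55 (0, 0.02 and 2.5 Gy).

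Differences were taken between arrays on the log2 scale (Python 3.11.15, pandas 2.3.3). Genes were counted at 2-fold if their mean over the arrays was at least 4.55, the median of named genes; the members were counted whatever their level. The number of arrays limits the precision. Each dose had 1 array, so no test was run. The members and lists were chosen with earlier results of these data known (138 of 152 pathway symbols and 62 of 69 marker symbols were measured; the rest are not analysed here). Genes were named by rule: all members, their paralogs and the sorting markers, up to 3 other genes per lipid list with the largest difference past the level minimum, and the 5 nearest in pattern; others are marked. Motifs were sought on both strands of the 250 bases upstream. Alternatives were median centring, quantile normalization, loess over level (span 0.3), no filter on level, a stricter one (the 75th percentile), and fold sizes of 1.5 and 3. The counting and scaling steps were tested on simulated data.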

Additional observations from a re-analysis of the deposited data

How the results depend on the processing

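No paired analysis was possible because the arrays carry no replicate numbers and nothing was tested. Under the 3 scalings, 62 member differences moved by less than 0.1 (log2) and 10 by more, at most by 0.22, and none past 2-fold changed sign. Median centring moved the median of all genes by at most 0.03 in any comparison. Members at least 2-fold higher were 0 after loess in 0.02 Gy minus unirradiated and 1 after quantile normalization and 1 after loess in 2.5 Gy minus unirradiated, where Scd2 was just short of it; at 3-fold they were 0 in all 3 comparisons. The cholesterol synthesis median in 2.5 Gy minus unirradiated was 0.30 at the 75th percentile minimum. Genes of that list past 3-fold were 0 in each comparison; past 1.5-fold they were 5 higher in 2.5 Gy minus unirradiated, and 2 higher and 1 lower in 2.5 Gy minus 0.02 Gy. Over all genes the counts follow the fold size and the filter by construction. In 2.5 Gy minus unirradiated they were 218 higher and 148 lower with no filter, 84 higher and 29 lower with the stricter one, 704 higher and 399 lower past 1.5-fold, and 32 higher and 13 lower past 3-fold. In 0.02 Gy minus unirradiated these were 259 higher and 272 lower, 94 higher and 56 lower, 869 higher and 547 lower, and 20 higher and 37 lower. In 2.5 Gy minus 0.02 Gy they were 284 higher and 231 lower, 84 higher and 68 lower, 666 higher and 657 lower, and 45 higher and 21 lower. Over all lists, 19 medians moved by over 0.1 and 116 did not. The cause of the shifts under other scalings was not tested.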
